A study of Mus musculus with 9 samples.

Results

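Cytosolic ribosomal protein genes encode the protein parts of the ribosomes that translate messenger RNA in the cytoplasm. They were taken as the rows of the count table whose symbol begins with Rpl, Rps or Rplp and goes on with a number and at most a short suffix, leaving out the S6 kinases and symbols that carry -ps. The table held 92 such rows among 55276 genes, and 86 of them passed the filter on low counts that left 17672 genes to test. The rule also took in paralogues with a suffix such as l or rt, 7 rows annotated as processed pseudogenes, and Rps19bp1, which binds a ribosomal protein without being one. RNA was sequenced from PPTR cells, a mouse intrahepatic cholangiocarcinoma line grown from a tumour organoid and adapted to flat culture. All groups came from the same line and carried the same engineered alleles, among them Prom1CreERT2 and a ZsGreen reporter. Control cells (Vcam1ctrl, WT in the labels) were compared with Vcam1KO1 and Vcam1KO2, 2 single-cell clones made with CRISPR/Cas9 and a guide to exon 2 of Vcam1, so each knockout group is 1 clone. Each group had 3 libraries from different passages, untreated, and the aim given for the series was to find targets that act downstream of Vcam1.

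A ribosome has a small subunit that reads the messenger RNA and a large subunit that joins amino acids. Their proteins are needed in matched amounts, and many of their messenger RNAs begin with a C and a run of pyrimidines, the 5′ terminal oligopyrimidine (TOP) tract, through which mTOR and the RNA-binding protein Larp1 control them. Myc and the RNA polymerases that make ribosomal RNA are known to act on the same supply, so growing tumour cells usually hold much ribosomal protein RNA. Levels here are in CPM, counts set against the total of their library after scaling of the libraries by the trimmed mean of M values (TMM). Adjusted p-values come from the quasi-likelihood test of edgeR with Benjamini-Hochberg adjustment over all tested genes, and a gene was called when this value was below 0.05. Where single clones were tested, against control or each other, these p-values measure the spread between passages of 1 culture or clone. The test over both clones takes the clones as 1 group, so its spread also holds the difference between the clones. Since CPM is a share of all RNA counted, it cannot tell less ribosomal protein RNA per cell from a different mix of cells or more of other RNA.

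The libraries held 53415907 to 125223073 counts, so 3 counts, the most that a count of 0 allows, came to at most 0.055 CPM. Vcam1 itself stood at 221 to 329 CPM in Vcam1ctrl, at 92.4 to 128 in Vcam1KO1 and at 83.0 to 119 in Vcam1KO2, with no overlap between control and clones (log2 fold change over both clones −1.36, SE 0.17, adjusted p = 0.00021). The clones also differed from control cells in their cell type markers. Of 10 cholangiocyte markers 7 were lower and 1 was higher in the clones, with summed levels of 13569 to 15250 CPM in Vcam1ctrl, 10618 to 11078 in Vcam1KO1 and 7635 to 11082 in Vcam1KO2, where Cldn4 was at 0. Of 8 fibroblast markers 6 were tested, and 5 were higher over both clones. In Vcam1KO1 4 were higher and 1 was lower, with log2 fold changes down to −4.11, and in Vcam1KO2 5 were higher and 0 lower. Their sums were 427 to 828 CPM in control libraries, where Lum was at 0, against 10396 to 13024 in Vcam1KO1 and 6201 to 7514 in Vcam1KO2. Of all tested genes 21.2% were lower and 21.7% higher over both clones. These shares were 30.0% and 29.9% in Vcam1KO1, and 26.1% and 25.3% in Vcam1KO2. Cyp3a11, a hepatocyte marker, was at 0 in every group. Sums of 6 hepatocyte markers were 44.3 to 176 CPM in control libraries and at most 3.02 CPM in the clones, and those of 5 haematopoietic and 4 endothelial markers were at most 10.4 and 1.998 CPM in any library, with the T cell marker Cd3e at 0 in Vcam1ctrl and Vcam1KO1. The part that these differences play in the ribosomal protein levels was not tested. One library stood apart: the third of Vcam1KO1 had 27.7 CPM of Mki67, a marker of dividing cells, against 114 to 332 CPM in the other libraries.

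The ribosomal protein genes took a smaller share of all counts in every library of both clones. The share was 6.69%, 6.30% and 5.98% in Vcam1ctrl (6.33% ± 0.36, SD, n = 3), 3.16%, 2.92% and 2.14% in Vcam1KO1 (2.74% ± 0.53, SD, n = 3) and 3.69%, 4.15% and 4.49% in Vcam1KO2 (4.11% ± 0.40, SD, n = 3). The 3 groups did not overlap, with Vcam1KO1 lowest and Vcam1KO2 in between. As a percentage of the control mean, Vcam1KO1 was at 43.4% and Vcam1KO2 at 64.9%. Adding the rows of genes that share much of their sequence raised each share without changing this order (7.37% ± 0.39, 3.25% ± 0.67 and 4.91% ± 0.49, SD, n = 3 each). The third Vcam1KO1 library, with its low Mki67, held the lowest share of all.

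**Figure D1:**
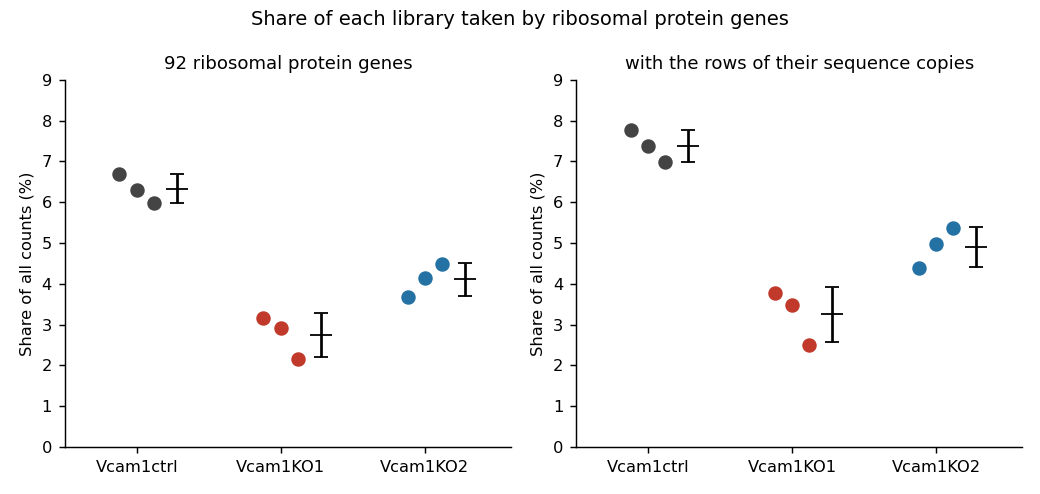
Share of all counts (%, y axis) taken by the 92 ribosomal protein genes (left) and by these genes with the rows of their sequence copies (right), in each library of Vcam1ctrl, Vcam1KO1 and Vcam1KO2 (dots), with the mean and SD of 3 libraries beside them. On the left the control libraries sit between 5.98% and 6.69%, Vcam1KO2 between 3.69% and 4.49%, and Vcam1KO1 between 2.14% and 3.16%.

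Gene by gene, most of the family was lower in the clones. Over both clones 56 of the 86 tested members fell and 1 rose, where 21.2% of all tested genes fell and 21.7% rose. The median log2 fold change was −0.84 over the members and 0.07 over all tested genes, so the median member stood at 55.8% of its control level. In 66 of the 86 members every library of both clones lay below every control library, which was the case for 23.0% of all tested genes, and in 0 did every clone library lie above. In Vcam1KO1 77 members fell and 0 rose (background 30.0% lower and 29.9% higher), with a median of −1.21 (0.02 over all genes). In Vcam1KO2 50 fell and 1 rose (background 26.1% lower and 25.3% higher), with a median of −0.58 (0.00 over all genes). Both clones are set against the same control libraries. All 50 members that fell in Vcam1KO2 also fell in Vcam1KO1, and 27 more fell in Vcam1KO1.

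The clones differed from each other as well. Directly compared, 63 of 86 members were lower in Vcam1KO1 than in Vcam1KO2 and 0 were higher (background 18.5% lower and 20.2% higher), with a median log2 difference of −0.62 against 0.04 over all genes. Without the second library of Vcam1KO2 the number lower was 38 in place of 63, while in that fit 13.0% of all tested genes were lower. The 20 proliferation genes summed to 1460 to 2457 CPM in Vcam1ctrl, 433 to 2340 in Vcam1KO1 and 2313 to 4304 in Vcam1KO2. Set directly against Vcam1KO2, Vcam1KO1 had 1 of these genes called lower and 0 higher by edgeR, with a median of −0.96 and all log2 differences between −1.44 and −0.39. Against control cells their medians were −0.27 in Vcam1KO1 and 0.76 in Vcam1KO2. Their part in the difference between clones was not tested. Without the third Vcam1KO1 library 51 members were lower in Vcam1KO1 than in Vcam1KO2 (16.2% of all genes), and 75 were lower than in control cells (28.7% of all genes).

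**Figure D2:**
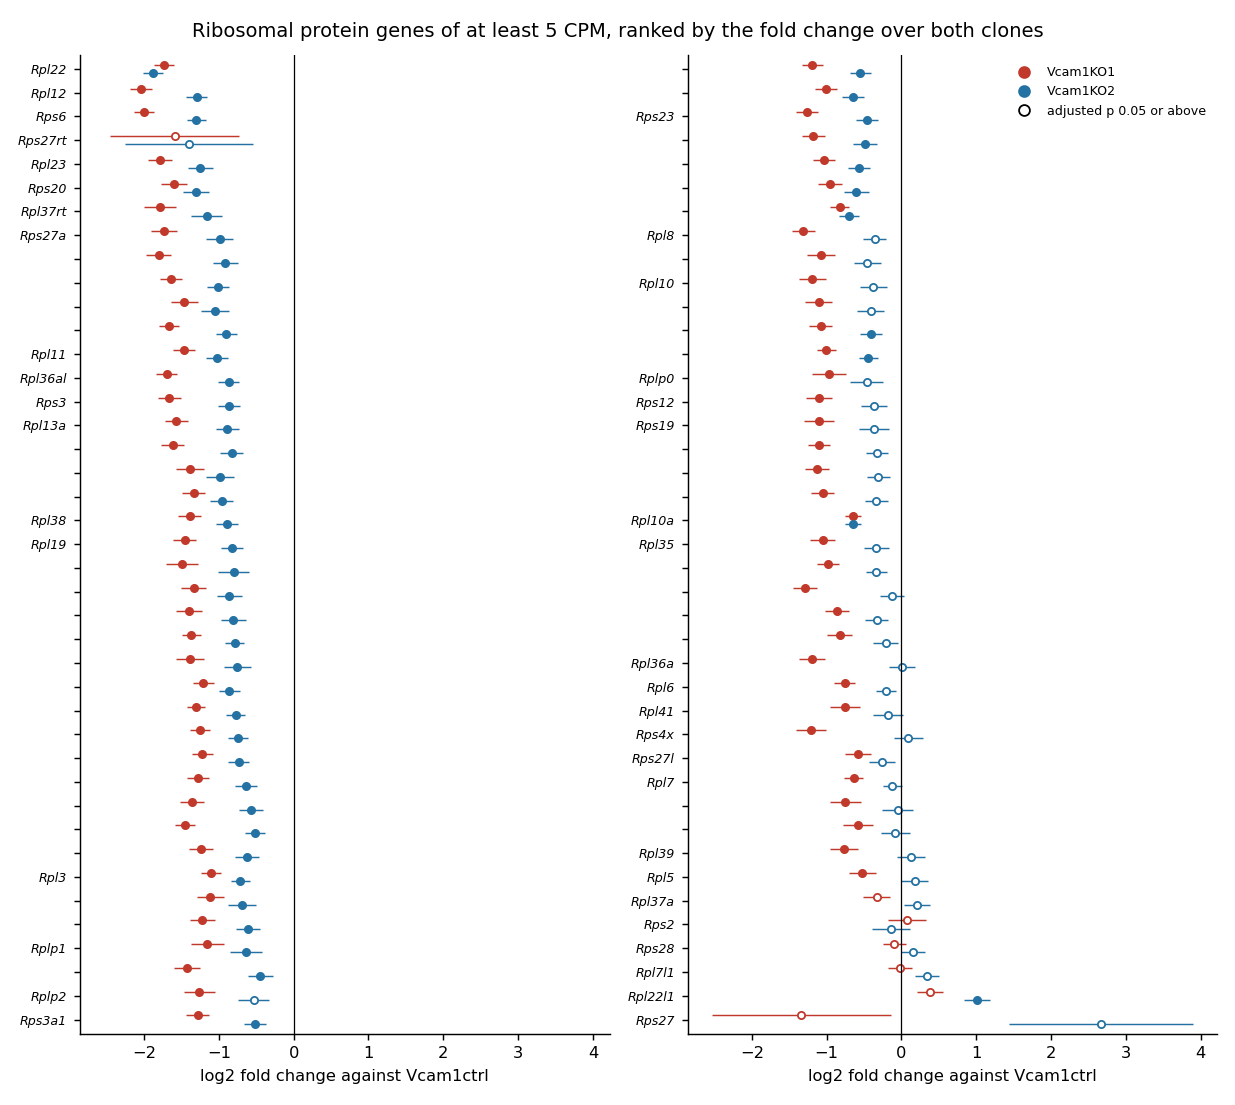
Log2 fold change against Vcam1ctrl (x axis) of 82 of the 83 ribosomal protein genes with a mean of at least 5 CPM, for Vcam1KO1 (red) and Vcam1KO2 (blue), with bars for the standard error and genes ranked by the fold change over both clones and labelled where named in the text. Filled dots have an adjusted p below 0.05. Most red dots lie left of the blue ones, Rpl22, Rpl12 and Rps6 are at the low end, and Rpl22l1 and Rps27 end the list.

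Both subunits took part, where members were sorted by symbol alone (Rpl or Rps). The small subunit rows thus include Rps19bp1, and Rps27 and Rps27rt as separate rows. The large subunit rows include Rpl7l1 and the pseudogene Rpl37rt. Of 50 large subunit members of at least 5 CPM 36 fell over both clones and 1 rose, with a median of −0.88. Of 33 small subunit members 20 fell and 0 rose, with a median of −0.81. The standard deviation among members was 0.45 in the large and 0.63 in the small subunit on the log2 scale, against a median standard error per gene of 0.23. The small subunit value includes Rps27 (1.75) and Rps27rt (−1.49), whose reads changed places in the first Vcam1KO2 library, as described with the copies. Over both subunits it was 0.53 on own rows of at least 5 CPM and 0.43 with copies summed. Mitochondrial ribosomal proteins, which build the separate ribosomes of mitochondria, gave other counts: of 78 tested genes 21 fell and 12 rose, with a median of −0.07. Of all tested genes 21.2% fell and 21.7% rose over both clones. The median transcript length was 696.5 bases for the members of at least 5 CPM and 2238.5 for other protein-coding genes of this level. The 1847 other genes under 1 kb and of at least 5 CPM had a median log2 fold change of 0.01, with 399 lower and 419 higher.

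Rps6, the small subunit protein that S6 kinases phosphorylate downstream of mTOR, read 1235, 1119.6 and 1105 CPM in Vcam1ctrl, 313, 312 and 243 in Vcam1KO1, and 473, 469.7 and 463 in Vcam1KO2. Here all 3 groups were apart, with Vcam1KO1 lowest (log2 fold change −1.61, SE 0.22, adjusted p = 0.000386 over both clones). Rpl23, a large subunit protein that can bind Mdm2, read 1398 to 1823 CPM in control libraries, 414 to 565 in Vcam1KO1 and 661 to 779.6 in Vcam1KO2, and Rps20 read 621 to 717, 161 to 251 and 260.3 to 278 CPM in the same order. Rpl12, of the large subunit, fell by 1.62 on its own row (SE 0.24, adjusted p = 0.000524), but that row held few of its reads, as described with the copies.

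Most members with known roles beyond the ribosome were lower. Of 9 such members 7 fell over both clones, all 9 in Vcam1KO1 and 7 in Vcam1KO2, with medians of −1.21, −1.57 and −0.89. In the same order 21.2%, 30.0% and 26.1% of all tested genes were lower. Rpl11, which binds and restrains Mdm2 together with Rpl5, went from 612 to 755 CPM in control libraries to 222 to 279 in Vcam1KO1 and 293 to 381 in Vcam1KO2 (−1.23, SE 0.18, adjusted p = 0.000509). Rps27a, made as a fusion with ubiquitin, went from 1145 to 1398 CPM to 283 to 438 and 598 to 686 CPM (−1.31, adjusted p = 0.00262). Rpl13a, part of a complex that silences translation in inflammation, fell by 1.19 (adjusted p = 0.00276), and Rps3, which also takes part in DNA repair, fell by 1.21 (adjusted p = 0.00421). Rpl38, known for its effect on translation of Hox messenger RNAs, fell by 1.12 (adjusted p = 0.00135). Rps19, mutated in Diamond-Blackfan anaemia, was lower in every clone library (216 to 371 and 455 to 585 CPM against 633 to 705), with −0.69 and adjusted p = 0.062 over both clones and −1.10 with adjusted p = 0.00112 in Vcam1KO1. Without the third Vcam1KO1 or the third Vcam1KO2 library it passed over both clones (−0.55 and −0.84).

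The stalk of the large subunit, which draws elongation factors to the ribosome, is made of Rplp0, Rplp1 and Rplp2. All 3 fell over both clones and in Vcam1KO1, but only Rplp1 fell in Vcam1KO2. Of all tested genes 21.2% were lower over both clones, 30.0% in Vcam1KO1 and 26.1% in Vcam1KO2. Rplp1 read 1769, 1706 and 1537 CPM in Vcam1ctrl, 892, 852 and 504 in Vcam1KO1, and 911, 1061 and 1249 in Vcam1KO2 (−0.87, SE 0.24, adjusted p = 0.0149). It had the highest level per length of the family in control cells, 3348 CPM per kb, followed by Rpl13a at 3134 and Rpl19 at 2759 CPM per kb, where the length is the median over the transcripts of the gene. Rplp2 read 654 to 857, 227 to 362 and 434 to 599 CPM (−0.85, adjusted p = 0.0287). Rplp0 read 351 to 511, 159 to 275 and 301 to 352 CPM on its own row, so the control and Vcam1KO2 ranges met there (−0.70, adjusted p = 0.0401). That row held 53.4% of its sum with copies. The sum read 697 to 972, 288 to 506 and 553 to 684 CPM, with all clone libraries below control. The call was lost for Rplp1 without the first control library (−0.84), for Rplp2 without the first or the second control library (−0.76 and −0.89) or the first or the second Vcam1KO1 library (−0.82 and −0.81), and for Rplp0 without any of these (−0.62, −0.65, −0.70 and −0.68) or the first Vcam1KO2 library (−0.74). Rpl19 fell from 1891 to 2148 CPM to 615 to 831 and 1046 to 1219.6 CPM (−1.11, adjusted p = 0.00298).

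Abundant members were also found among those that did not pass over both clones. Rpl8, Rpl41, Rpl7, Rpl6, Rps4x and Rps12 had the highest mean CPM of these, and their fold changes lay between −0.76 (Rpl8, adjusted p = 0.0633) and −0.36 (Rpl7, adjusted p = 0.149). All 6 fell in Vcam1KO1. When the contrasts of the clones were averaged in the fit of 3 groups, all 6 passed, with log2 fold changes from −0.83 (Rpl8, adjusted p = 0.00035) to −0.38 (Rpl7, adjusted p = 0.0133). In the fit over both clones as 1 group, Rpl8 passed without the second or the third Vcam1KO2 library (−0.86 and −0.92), Rps12 without these (−0.77 and −0.82) or the third Vcam1KO1 library (−0.57), and Rpl41 without the third Vcam1KO2 library (−0.62). Rpl8 shows the difference between clones most plainly among the autosomal members of this group, with 1901, 2048 and 1862 CPM in Vcam1ctrl, 867, 838 and 639 in Vcam1KO1, and 1349, 1534 and 1652 in Vcam1KO2. Its direct difference between clones was −0.95 (SE 0.15, adjusted p = 0.0013). Rpl10a, of the large subunit, gave another picture. On its own row it went from 618 to 689 CPM to 405 to 414 and 374 to 435 CPM, with a difference between clones of −0.00 (SE 0.11). With copies summed it fell by 0.78 in Vcam1KO1 and 0.56 in Vcam1KO2, a difference of −0.21 (SE 0.11, adjusted p = 0.171).

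A few members passed in neither clone. Rps28, a small subunit protein, read 459, 384 and 339.6 CPM in Vcam1ctrl, 407, 389 and 313 in Vcam1KO1, and 381, 469 and 464 in Vcam1KO2 (0.03, SE 0.16, adjusted p = 0.878). Its sign turned below 0 under several other settings, so no direction is given. Rpl37a read 365 to 429.9, 257 to 360.4 and 355 to 518 CPM (−0.04, SE 0.22, adjusted p = 0.904). Rpl7l1, a nucleolar paralogue of Rpl7, read 78.9 to 118, 82.6 to 99.7 and 108 to 122 CPM (0.17, SE 0.18, adjusted p = 0.453). In these 3 genes control overlapped each clone. The clones overlapped each other in Rps28 and Rpl37a but not in Rpl7l1, which did not pass in the direct test between clones. Rpl7 itself, which fell in Vcam1KO1, read 1219.8 to 1311, 730.3 to 902 and 1058 to 1255 CPM.

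Rpl22 and its paralogue Rpl22l1, which can take its place in the large subunit, moved in opposite directions. Rpl22 read 517, 423 and 485 CPM in Vcam1ctrl, 161, 140.3 and 126 in Vcam1KO1, and 124, 139 and 124 in Vcam1KO2 (−1.81, SE 0.12, adjusted p = 5.63e-06). Rpl22l1 read 47.1, 49.96 and 31.2 CPM in Vcam1ctrl, 61.2, 58.0 and 48.3 in Vcam1KO1, and 88.7, 86.5 and 82.5 in Vcam1KO2. The Vcam1KO2 libraries lay above all others, and those of Vcam1KO1 overlapped control in 1 library. The rise was 0.73 over both clones (SE 0.24, adjusted p = 0.0341), 1.01 in Vcam1KO2 (SE 0.17, adjusted p = 0.000952) and 0.38 in Vcam1KO1 (SE 0.17, adjusted p = 0.0784). The call over both clones was lost, with 0 members higher, when any control library (0.54 to 0.81) or any Vcam1KO2 library (0.63 to 0.66) was left out. As a share of Rpl22 in the same library, Rpl22l1 came to 6.44% to 11.8% in Vcam1ctrl, 38.0% to 41.3% in Vcam1KO1 and 62.4% to 71.3% in Vcam1KO2. Rpl22 shared 50% or more of its 31-base words with no other gene, and Rpl22l1 did so only with Gm15421, whose counts changed its level by little when added (84.4 to 89.5 CPM in Vcam1KO2).

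**Figure D3:**
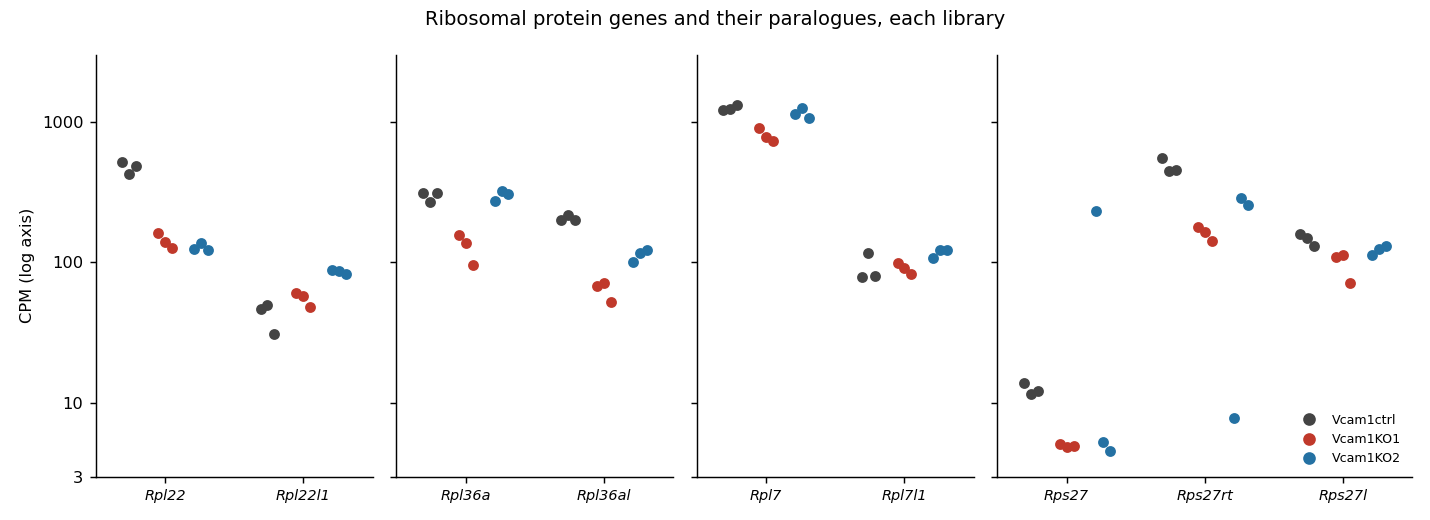
CPM (log axis) of 4 ribosomal protein genes and their paralogues in each library of Vcam1ctrl (dark grey), Vcam1KO1 (red) and Vcam1KO2 (blue). Rpl22 falls to 124 to 161 CPM in the clones while Rpl22l1 reaches 82.5 to 88.7 CPM in Vcam1KO2. Rps27 and Rps27rt change places in 1 library of Vcam1KO2, at 231 and 7.90 CPM.

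In the other pairs the paralogue was lower, passed in neither clone or was hardly counted. Rpl36a, on the X chromosome, and Rpl36al, its autosomal paralogue, both fell in Vcam1KO1 (−1.20 and −1.70), but in Vcam1KO2 Rpl36a was at 0.01 (SE 0.17) and Rpl36al fell by 0.87 (SE 0.14, adjusted p = 0.000592). Rpl36al read 202, 219 and 202 CPM in Vcam1ctrl, 68.5, 71.4 and 52.0 in Vcam1KO1, and 101, 117 and 123 in Vcam1KO2. Rps27l, a paralogue of Rps27, read 132 to 160.1, 71.4 to 114 and 114 to 132 CPM (−0.41, SE 0.18, adjusted p = 0.0898, and −0.31, which passed, without the third Vcam1KO1 library). Rpl3 fell from 1645 to 1826 CPM to 703 to 909 and 998 to 1103 CPM (−0.89, adjusted p = 0.00189), whereas Rpl3l, its paralogue of heart and skeletal muscle, had 10 counts in all libraries together. Rpl10l and Rpl39l, the testis paralogues of Rpl10 and Rpl39, had 5 and 1 counts. Rps3a1 fell by 0.85 (adjusted p = 0.0216), and Rps3a3, a pseudogene copy, was at 0.073 to 0.327 CPM. Rps23 fell by 0.81 (adjusted p = 0.0302) on its own row, which held 45.5% of its sum with copies, and the sum fell by 0.93 (adjusted p = 0.023). Rpl35 was at −0.65 (adjusted p = 0.057) but passed without the second or the third Vcam1KO2 library (−0.73 and −0.81). On their own rows the calls of Rps3a1 and Rps23 were lost without any 1 control library (−0.91 to −0.83 and −0.94 to −0.76). That of Rps23 was also lost without the first or the second Vcam1KO1 library (−0.77 and −0.74).

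The 6 members that were not tested were Rpl10l, Rpl32l, Rpl39l, Rpl3l, Rps3a2 and Rps4l. Their totals over all 9 libraries ran from 1 count (Rpl39l) to 79 counts (Rps3a2). Rps4l had 15 counts, all of them in the first Vcam1KO1 library. A further 3 tested members, Rpl6l, Rps12l1 and Rps3a3, had means under 5 CPM and are annotated as processed pseudogenes. Rpl37rt, also annotated as a processed pseudogene, read 238, 212 and 213 CPM in Vcam1ctrl, 74.5, 56.7 and 61.2 in Vcam1KO1, and 66.4, 118 and 112 in Vcam1KO2, all clone libraries below control (−1.44, SE 0.24, adjusted p = 0.00123).

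Rps27 and Rps27rt show how reads of near-identical genes were placed. Rps27 (chromosome 3, 90212522 to 90213651) is the parent gene, and Rps27rt (chromosome 9, 114982366 to 114982739) is a retrogene copy, and they share 91.6% of the 31-base words of the smaller of both. Their first bases are shown because they show how alike the copies are: 10 bases before and 20 from the start that RefSeq gives (GRCm38.p6, both on the minus strand, at chr3:90213629-90213658 and chr9:114982720-114982749), with the longest run of 19 bases that both windows hold in capitals.
Rps27: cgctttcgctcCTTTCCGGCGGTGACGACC
Rps27rt: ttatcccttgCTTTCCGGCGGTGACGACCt
The 91.6% is counted over the whole transcripts, beyond these windows. In 8 of 9 libraries nearly all reads stood on the copy. Rps27 read 14.0, 11.7 and 12.2 CPM in Vcam1ctrl, 5.12, 4.90 and 4.96 in Vcam1KO1, and 231, 5.32 and 4.54 in Vcam1KO2. Rps27rt read 555, 445 and 457, then 178, 163 and 142, then 7.90, 286 and 258 CPM. Only the first Vcam1KO2 library was reversed, and it alone gave Rps27 the highest fold change of the family over both clones (1.75, SE 1.55, adjusted p = 0.386), which without that library was −1.38. Summed with their further copy, the rows read 583, 455 and 485 CPM in Vcam1ctrl, 181, 166 and 143 in Vcam1KO1, and 240.3, 289 and 268 in Vcam1KO2. The sum fell by 1.24 over both clones (SE 0.23, adjusted p = 0.00206), with no overlap of the clones with control.

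Similar placement touched other members. The rows of every gene that shared at least 50% of the 31-base words of the smaller of both genes were added to the member, which gave 82 rows, 70 of them with added copies (303 rows in all). In 9 of the 82 the member's own row held under 50% of the sum. For Rps2 it held 0.578%, since nearly all reads stood on Rps2-ps10, and the sum read 1727, 2124 and 1638 CPM in Vcam1ctrl, 1630.4, 1582 and 855 in Vcam1KO1, and 1672, 1980.5 and 2419 in Vcam1KO2. These groups overlapped (−0.11, SE 0.28, adjusted p = 0.761), so Rps2 passed neither on its own row (−0.03, adjusted p = 0.936) nor with its copies. Rpl5 held 4.59% of its sum. Its own row passed in Vcam1KO1 and not over both clones (−0.13, adjusted p = 0.703), but the sum went from 1268 to 1461 CPM to 470.3 to 692 and 950.5 to 1056 CPM (−0.79, SE 0.24, adjusted p = 0.0259). Rpl12 held 6.77%, and its sum fell by 1.01 (adjusted p = 0.0103) in place of 1.62. With copies summed 58 of 82 members fell and 1 rose over both clones, 77 fell in Vcam1KO1 and 53 in Vcam1KO2, and the medians were −0.89, −1.27 and −0.58.

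**Figure D4:**
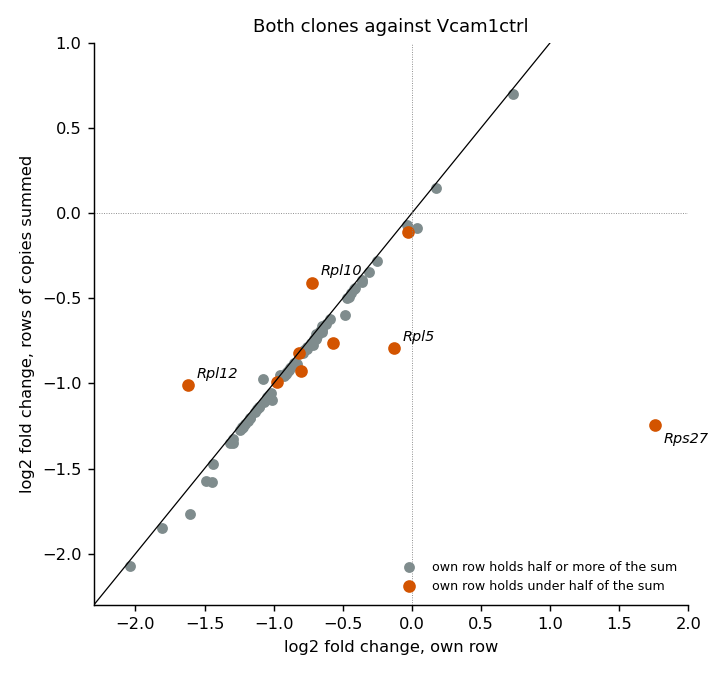
Log2 fold change over both clones against Vcam1ctrl for each member on its own row (x axis) and with the rows of its sequence copies summed (y axis), with the line of equal values. Most members lie on the line, while Rps27 (1.75 against −1.24), Rpl5 (−0.13 against −0.79), Rpl12 (−1.62 against −1.01) and Rpl10 (−0.73 against −0.41) do not, and orange dots mark the 9 members whose own row holds under 50% of the sum.

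The differences among members went with the chromosome they lie on, a pattern looked for after the values had been seen. Other tested genes of at least 5 CPM on the same chromosome had medians from −0.58 (chromosome 4) to 0.44 (X) over both clones. Across 83 members the fold change rose with this median (Spearman's rho 0.675, Pearson's r 0.539, a description across genes that share libraries). DNA copy number was not measured, so its part was not tested. On chromosome 4 the 641 other tested genes of this level had a median of −0.58, and all 5 members there fell. Among these members were Rpl22 (−1.81), Rps6 (−1.61), Rps20 (−1.44) and Rpl11 (−1.23). On chromosome 1 the other genes stood at 0.37 and 0 of 3 members fell over both clones, and on chromosome 10 they stood at 0.32 and 0 of 4 fell. Chromosome 5 had the highest autosomal median of other genes (0.41), yet 3 of its 6 members fell. On chromosome 17, with other genes at 0.33, 2 of 7 members fell. Of all tested genes 21.2% were lower over both clones. On chromosome 7, where other genes were at −0.03, 13 of 14 members fell. Taken relative to its chromosome the median member was at −0.92 over both clones, −1.19 in Vcam1KO1 and −0.66 in Vcam1KO2, and the standard deviation among members went from 0.53 to 0.45 over both clones.

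On the X chromosome the clones stood apart. It holds Rps4x, Rpl36a, Rpl39 and Rpl10. Rps4x read 1213, 1148 and 1198 CPM in Vcam1ctrl, 633, 558 and 350.2 in Vcam1KO1, and 1215, 1332 and 1247 in Vcam1KO2. The gene was well below control in Vcam1KO1 (−1.21, SE 0.20, adjusted p = 0.000577) and just above every control library in Vcam1KO2 (0.09, SE 0.19, adjusted p = 0.72), with a direct difference of −1.30 (SE 0.20, adjusted p = 0.00102). Rpl36a read 269.8 to 314, 96.1 to 157 and 274 to 320.5 CPM, and Rpl39 read 378 to 436, 176 to 290.0 and 395 to 488 CPM. Rpl10 read 194 to 335, 108 to 132 and 203 to 213 CPM on its own row, and 1258 to 1346, 467 to 668 and 1303 to 1457 CPM with its copies, chiefly Rpl10-ps3. Over both clones its own row was at −0.73 (adjusted p = 0.0576) and passed without the third control library (−0.92) or the first or the third Vcam1KO2 library (−0.84 and −0.83), while its sum was at −0.41 (adjusted p = 0.393). All 4 were lower in Vcam1KO1 than in Vcam1KO2. The 314 other tested genes of at least 5 CPM on X had medians of 0.11 in Vcam1KO1 and 0.67 in Vcam1KO2. Relative to these the 4 members stood on their own rows at −0.88 to −1.32 in Vcam1KO1 and at −0.55 to −1.05 in Vcam1KO2. The −1.05 was that of Rpl10, whose own row held 18.3% of its sum. With copies summed, Rpl10 was at 0.08 (SE 0.15) in Vcam1KO2 against control.

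**Figure D5:**
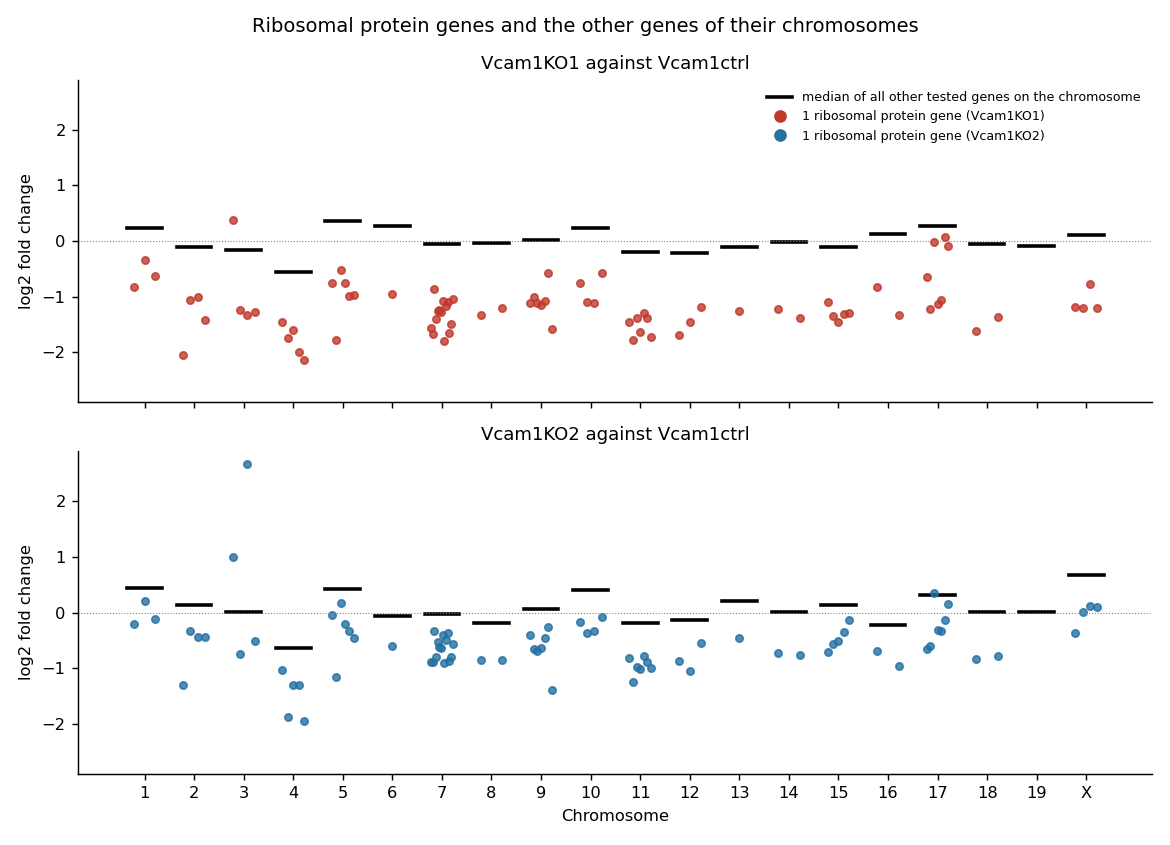
Log2 fold change against Vcam1ctrl (y axis) of the 83 ribosomal protein genes of at least 5 CPM by chromosome (x axis), for Vcam1KO1 (top) and Vcam1KO2 (bottom). Black bars give the median of all other tested genes of at least 5 CPM on that chromosome. Members on chromosome 4 have the lowest median in both clones. On their own rows the 4 on X lie between −0.37 and 0.13 in Vcam1KO2 and between −1.21 and −0.77 in Vcam1KO1.

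The start sites were searched for the TOP tract, taken here as a C followed by at least 4 bases that are each C or T, on the transcribed strand only. Away from the start base itself, the C also had to open the run, with no C or T before it. Of 92 members 67 had a promoter in the RefSeq table (GRCm38.p6). A tract began at the start base itself in 15 of them (22.4%) and in 3.01% of 27025 genes, and within 5 bases of it in 25 (37.3%) against 15.6% of all genes. The windows below hold 10 bases before and 20 from the start, with a tract that begins within 5 bases in capitals. They are shown for members that fell in Vcam1KO1 with a tract (Rps6 at chr4:86857348-86857377, minus strand, Rpl38 at chr11:114668570-114668599, plus strand, and Rplp2 at chr7:141447641-141447670, plus strand) and for Rpl22l1 (chr3:28805498-28805527, plus strand), Rps28 (chr17:33824543-33824572, minus strand) and Rps4x (chrX:102189372-102189401, minus strand), which had none by this rule.
Rps6: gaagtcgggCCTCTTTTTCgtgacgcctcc
Rpl38: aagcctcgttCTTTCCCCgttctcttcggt
Rplp2: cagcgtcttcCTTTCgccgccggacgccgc
Rpl22l1: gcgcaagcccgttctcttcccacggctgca
Rps28: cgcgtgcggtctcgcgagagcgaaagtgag
Rps4x: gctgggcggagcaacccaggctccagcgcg
Among members of at least 5 CPM, the 24 with a tract within 5 bases had medians of −0.83 over both clones, −1.26 in Vcam1KO1 and −0.45 in Vcam1KO2. The 39 without one had −0.73, −1.19 and −0.51. When a C inside a longer run of pyrimidines also counted, as in Rpl22l1, a rule chosen after seeing the data, 31 of 67 members (46.3%) and 21.2% of all genes held a tract within 5 bases. The medians were then −0.79, −1.24 and −0.45 for 30 members with a tract and −0.73, −1.19 and −0.51 for 33 without. The annotated start may miss the base used in these cells, so a window without these letters says nothing of the messenger RNA.

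Genes outside the symbol rule that serve the same machine also fell. Of the 4 ribosomal components with other symbols, 3 fell over both clones, among them Fau and Rack1, and Rpsa did not pass (−0.57, SE 0.29, adjusted p = 0.146). Rack1, the scaffold protein on the small subunit, read 2390.3 to 2625 CPM in Vcam1ctrl, 667 to 913 in Vcam1KO1 and 1189 to 1289.8 in Vcam1KO2 (−1.30, SE 0.21, adjusted p = 0.000909). Fau, made as a fusion of a ubiquitin-like protein and a small subunit protein, fell by 0.79 (adjusted p = 0.0113). Of 17 other genes known for TOP tracts, 10 fell and 0 rose over both clones (background 21.2% lower and 21.7% higher), with a median of −0.56. In Vcam1KO1 16 of the 17 fell and in Vcam1KO2 9, where 30.0% and 26.1% of all tested genes were lower. Among them, Gas5, the host of small nucleolar RNAs, went from 316 to 408 CPM to 92.01 to 96.1 and 95.9 to 141 CPM (−1.70, SE 0.17, adjusted p = 5.99e-05). The elongation factors Eef1a1 and Eef2 fell by 0.86 (adjusted p = 0.00678) and 0.62 (adjusted p = 0.0157), and Tpt1, a growth-related protein, by 0.87 (adjusted p = 0.00839). The call of Eef2 was lost without the first or the third control library (−0.63 and −0.55).

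Ribosome assembly genes were lower mainly in Vcam1KO1. Of 51 genes for ribosomal RNA synthesis and ribosome assembly 19 fell and 1 rose over both clones (median −0.47), 41 fell in Vcam1KO1 (median −0.88) and 16 in Vcam1KO2 (median −0.19). The 16 are near the background of 26.1% lower there, while 30.0% of all genes were lower in Vcam1KO1 and 21.2% over both clones. Polr1a, the largest subunit of RNA polymerase I, and its factor Ubtf did not pass over both clones (−0.11, SE 0.11, adjusted p = 0.478, and 0.12, SE 0.11, adjusted p = 0.406). The nucleolar proteins Fbl and Ncl fell in Vcam1KO1 (−1.07, adjusted p = 0.00018, and −0.51, adjusted p = 0.017) and did not pass in Vcam1KO2 (−0.14 and 0.19). Both differed between the clones, by −0.92 (adjusted p = 0.00118) and −0.71 (adjusted p = 0.00639). Npm1, the nucleolar chaperone, was lower in both clones (−1.22 over both, SE 0.26, adjusted p = 0.00408).

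Of 24 regulators of ribosome supply 7 rose and 9 fell over both clones (background 21.7% higher and 21.2% lower), with a median of −0.05. Myc read 196, 243 and 223 CPM in Vcam1ctrl, 17.4, 36.0 and 48.5 in Vcam1KO1, and 146, 111 and 58.9 in Vcam1KO2. It followed the order of the ribosomal protein share by group, control highest and Vcam1KO1 lowest, with no overlap (−1.67, SE 0.54, adjusted p = 0.0314 over both clones, and a direct difference of −1.63 between clones, adjusted p = 0.00951). The call over both clones was lost without any 1 control library (−1.75 to −1.63), the second or the third Vcam1KO1 library (−1.53 and −1.58) or the third Vcam1KO2 library (−1.65). Within the groups the order was not kept. In both clones the library with most Myc had the smallest ribosomal protein share of its group, and in Vcam1ctrl the library with least Myc had the largest. Mycn was low throughout, at 1.78 to 3.25 CPM in control libraries and at most 0.562 CPM in the clones (−3.52, SE 0.90, adjusted p = 0.0113). Larp1, the TOP-binding repressor, fell by 0.58 (SE 0.14, adjusted p = 0.00815), and Mtor, on chromosome 4, fell by 0.62 (SE 0.21, adjusted p = 0.038), a call lost without the first or the third control library (−0.60 and −0.51) or the second Vcam1KO2 library (−0.58). The S6 kinase gene Rps6kb1 rose by 0.33 (SE 0.12, adjusted p = 0.0461), a call lost without any 1 library other than the third of Vcam1KO1 (0.28 to 0.36) and under other scalings, and Rps6kb2 was at 0.42 (SE 0.19, adjusted p = 0.0928) over both clones and rose in Vcam1KO1 (0.67, adjusted p = 0.000416). Cdkn1a, a cell cycle inhibitor, read 361 to 391.9 CPM in Vcam1ctrl, 80.0 to 121 in Vcam1KO1 and 166 to 188 in Vcam1KO2 (−1.43, SE 0.24, adjusted p = 0.00113). Mdm2, which several ribosomal proteins can bind, fell by 0.68 (SE 0.18, adjusted p = 0.013), a call lost without the first control library (−0.62).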

How the data were processed

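RNA of 9 libraries (Vcam1ctrl, Vcam1KO1 and Vcam1KO2, 3 each) was sequenced as paired, stranded mRNA libraries. The authors deposited estimated counts per gene symbol, made with kallisto 0.46.1 on GENCODE transcripts of GRCm38 and already whole numbers. How transcripts were summed to genes is not given in the sources used here, and kallisto shares reads out among near-identical transcripts. All columns were used and grouped by their labels.

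The deposited counts were scaled by TMM and tested with edgeR 4.0.16 in R 4.3.3 (filterByExpr, quasi-likelihood test, Benjamini-Hochberg adjustment over 17672 genes, threshold 0.05). Both clones together (6 libraries) were compared with Vcam1ctrl in a fit of 2 groups, and each clone with Vcam1ctrl and with the other clone in a fit of 3 groups. Standard errors are those of the log2 fold change. Library totals of 53415907 to 125223073 set the precision, and floors of 3 counts cover counting error only.

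The members and gene lists were chosen with earlier results of these data known. Named genes were the paralogues and their parents, the stalk and known-role lists, the 5 largest changes each way over both clones and the 3 largest between clones, the 3 highest per length, the 6 most abundant that did not pass, the other-symbol components and a short list of regulators. Rps20, Rpl37a, Rpl37rt, Gas5 and the pseudogenes that took reads were named after their values were seen. Some alleles and genes that these rules take in are not reported here. Chromosome positions and lengths came from an older GENCODE release of GRCm38, and promoters from RefSeq. limma-voom, DESeq2, other scalings, filters, the summing of copies and the omission of each library in turn were tried as alternatives.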

Additional observations from a re-analysis of the deposited data

Results flagged for a closer look

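In 2 named members 1 of the 6 clone libraries stood far from the others, measured as its gap to the nearest library over the whole range, above Dixon's critical value, which chance passes in about 1 of 20 groups. The gap was 0.997 of the range for Rps27 (the first Vcam1KO2 library, high) and 0.646 for Rps27l (the third Vcam1KO1 library, low). The rule takes the 6 clone libraries as 1 group, though they come from 2 clones that differ. Many named members were examined, so some can pass by chance.

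The difference from control was unequal in the clones for 28 named members by the direct test in edgeR, as log2 differences of Vcam1KO1 from Vcam1KO2 with adjusted p below 0.05, all of them negative. In this test 63 of all 86 tested members were lower, and of all tested genes 18.5% were lower and 20.2% higher. The difference was −4.01 for Rps27, which rested on the first Vcam1KO2 library. On the X chromosome it was −1.30 for Rps4x, −1.21 for Rpl36a, −0.89 for Rpl39 and −0.82 for Rpl10. In the stalk it was −0.73 for Rplp2. Among members with roles beyond the ribosome it was −0.70 for Rpl5, −0.44 for Rpl11, −0.70 for Rps6, −0.68 for Rpl13a, −0.73 for Rps19, −0.74 for Rps27a, −0.80 for Rps3, −0.50 for Rpl38 and −0.54 for Rpl23. Paralogues and their parents gave −0.39 for Rpl3, −0.51 for Rpl7, −0.62 for Rpl22l1, −0.83 for Rpl36al, −0.77 for Rps3a1, −0.55 for Rpl6 and −0.73 for Rps12. The remaining differences were −0.75 for Rpl12, −0.63 for Rpl19, −0.95 for Rpl8, −0.58 for Rpl41, −0.80 for Rps23 and −0.72 for Rpl35.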

How the results depend on the processing

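No paired analysis was possible because the labels give the groups no shared replicate numbers. The numbers of members lower ran from 52 to 72 over both clones, 75 to 77 in Vcam1KO1, 49 to 57 in Vcam1KO2 and 57 to 64 between clones under limma-voom, DESeq2, other scalings and filters, pseudogene counts added, copies summed and, over both clones, the average of the contrasts of both clones (72). With 1 library left out they ran from 40 (without the first control library) to 66, 73 to 79, 43 to 60 and 38 (without the second Vcam1KO2 library) to 66, where fewer libraries were fitted. The medians stayed between −0.93 and −0.73, −1.36 and −1.09, −0.65 and −0.54, and −0.76 and −0.48 in these comparisons. Without the filter on low counts 0 members in place of 1 rose over both clones by edgeR and 2 in place of 1 rose in Vcam1KO2. With 1 library left out 0 to 1 members rose over both clones, 0 to 1 in Vcam1KO1 and 1 to 2 in Vcam1KO2.

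Among the named members, the only ones followed gene by gene, Rpl7l1, Rps27, Rps28 and Rps2 changed sign over both clones in some alternatives. Rpl7l1 (0.17) stood at −0.16 only when taken relative to its chromosome. Rps27 stood at −0.53 under limma-voom, at −1.24 with copies summed, and between −1.38 and 1.99 with 1 library left out, where only the fit without the first Vcam1KO2 library fell below 0. Rps28 stood at −0.0059 under DESeq2, −0.00698 without the filter, −0.088 with copies summed and −0.068 to 0.15 with 1 library left out. Rps2 (−0.03) ran from −0.19 to 0.089 with 1 library left out. It was above 0 without the second control, the third Vcam1KO1 or the first Vcam1KO2 library. The rise of Rpl22l1 ran from 0.54 to 0.82 and passed in 11 of 18 alternatives (adjusted p from edgeR, limma or DESeq2 between 0.0033 and 0.1401). The summing of copies and the comparison with the chromosome were chosen after seeing the data. The causes were not tested beyond the alternatives' own construction.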
